A study of Homo sapiens with 8 samples.

Results

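Most genes named ZNF with a number belong to the largest family of human transcription factor genes, those with C2H2 zinc fingers. Among the 15811 genes of the deposited table, 305 genes with such names are described here. They are the genes with a symbol of that form whose mean over the 4 wild type (WT) libraries was at least about 10 CPM (counts scaled to equal library sizes), after 6 genes annotated as pseudogenes had been left out. Another 163 ZNF genes lay below that mean. The WT level chose the genes, so WT means are given as a description only, and a list chosen on WT levels leans towards falls in the other group.

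All libraries came from H9, an established line of human embryonic stem cells. The EXT1-/- group (4 libraries) was a single H9 line in which EXT1 had been targeted with CRISPR/Cas9, and the WT group (4 libraries) was unedited H9. EXT1 encodes an enzyme that polymerises heparan sulfate, a sugar chain of the cell surface that binds growth factors. Cells of both groups had been grown in E8 medium, seeded with the kinase inhibitor Y-27632, and then kept for 28 h in RPMI medium with 6 µM CHIR-99021, an inhibitor of GSK3 used to drive stem cells towards mesendoderm. No uninduced library was analysed here, so a difference that existed before induction and one that arose during it cannot be told apart.

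Most ZNF proteins carry tandem C2H2 fingers, each folded around a zinc ion and each reading a few bases of DNA. In the largest subgroup a KRAB box at the amino end recruits TRIM28, which brings SETDB1 and HP1 proteins to the bound site and keeps it silent, often at transposable elements. Other members have no KRAB box and act as partners of signalling proteins, as chromatin subunits or as proteins that bind RNA. Many KRAB genes arose by tandem duplication and stand in long clusters on chromosome 19.

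The targeted gene was read first. EXT1 had 890, 894, 915 and 980 normalised read counts in EXT1-/- replicates 1 to 4, against 1776, 1499, 1464 and 1508 in WT replicates 1 to 4. Each EXT1-/- library had less of the transcript than any WT library, but none lacked it, and the edited position is not given in the sources used here. Library totals were 37737058 to 40017763. Mitochondrially encoded transcripts took 9.18% and 9.38% of the counts in EXT1-/- replicates 1 and 4 and 10.67% in WT replicate 1. In each of the remaining 5 libraries that share was 5.30 to 5.43%. The 3 and the 5 libraries are called the high and the low mitochondrial set below, although the labels name no such set. The 7 stem cell markers summed to between 135956 and 150202 in EXT1-/- libraries and to between 173858 and 180379 in WT libraries, and the 5 mesendoderm markers to between 11760 and 18459 in EXT1-/- libraries and between 31463 and 35640 in WT libraries. Within these sums SOX2 and SALL4 were called higher in EXT1-/- libraries. Their means were 11246 and 8525.5 in EXT1-/- and 5922.5 and 7124 in WT libraries. LIN28A, the stem cell marker with the highest mean, averaged 68365.5 in EXT1-/- and 64478.8 in WT libraries and was not called. POU5F1, NANOG, DPPA4 and DNMT3B were called lower, and POU5F1 averaged 32615.8 in EXT1-/- and 59306 in WT libraries. FGF8 averaged 702 in EXT1-/- and 434.8 in WT libraries. The fibroblast markers DCN and LUM, the neuroectoderm markers PAX6, SOX1, LHX2 and SIX3 and the blood marker PTPRC were absent from the deposited table. COL1A2, the fibroblast marker measured, had 2520 to 3566 in EXT1-/- libraries and 4106 to 5547 in WT libraries. The part of these differences in the results on ZNF genes was not tested. In bulk RNA, fewer cells of a type and less RNA per cell cannot be told apart. Whether the replicates were separate cultures is not stated, and the p-values reflect the scatter among these 8 libraries, part or all of which may be technical.

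Of the 305 genes, 303 were annotated as protein coding. A C2H2 finger pattern was found in translated coding sequences 10 times in the median gene, with a range of 0 to 33. A KRAB box was found in 197 genes and a SCAN box, which pairs proteins with one another, in 14, while 106 had no KRAB box and 2 had no coding sequence to read. Chromosome 19 held 135 of the genes. WT means ran from 391.25 to 12443 with a median of 980.5. The summed ZNF counts took 1.08, 1.18, 1.16 and 1.07% of EXT1-/- libraries 1 to 4 and 1.05, 1.11, 1.09 and 1.11% of WT libraries 1 to 4. In both groups the libraries of the high mitochondrial set had the lowest shares. Mitochondrial counts are part of these totals, so a higher mitochondrial share by itself lowers the ZNF share. Whether the order holds without mitochondrial counts was not tested.

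ZNF207, which helps chromosomes attach to the spindle and takes part in splicing, had the highest WT mean, 12443 ± 605 (SD, n = 4), against 13763 ± 229 (SD, n = 4) in EXT1-/- libraries. Next by WT mean came ZNF664 with 11095.5 in EXT1-/- and 9719.5 in WT libraries, ZNF532 with 9975 in EXT1-/- and 9195 in WT libraries, and ZNF146 with 8758 in EXT1-/- and 8574 in WT libraries. None of these 4 passed the threshold. Per kilobase of exon the order of WT levels changed, with 2068 for ZNF146, 1533 for ZNF664, 785.8 for ZNF207 and 769.4 for ZNF532, beside a median of 178.7 over the 305 genes.

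Most of the well expressed ZNF genes differed little between the groups. Of the 305, 55 (18.0%) passed an adjusted p of 0.05 in limma with Benjamini-Hochberg adjustment over all genes, where 32.0% of all 15811 genes did and 30.1% of the 9587 other genes with as high a WT mean. Lower in EXT1-/- were 24 (7.87%, beside 16.8% of all genes), and higher were 31 (10.2%, beside 15.2% of all genes). The fold was below 1.25 in 258 genes, at least 1.5 in 12 and at least 2 in 3. Lower and upper quartiles of the log2 fold change were -0.105 and 0.16 in the ZNF genes. They were -0.16 and 0.17 in the other well expressed genes and -0.21 and 0.22 in all genes. All these quartiles lie within 1.25-fold, so most genes of each kind differed by less than that. A call with at least a 2-fold difference was made for 0.984% of the ZNF genes, 3.13% of the other well expressed genes and 7.02% of all genes. The median size of the log2 fold change, either sign, was 0.13 in the ZNF genes, 0.17 in the other well expressed genes and 0.22 in all genes, and the signed medians were 0.03 and 0.01 for the ZNF genes and all genes. Values of the groups did not overlap in 73 ZNF genes (23.9%, beside 33.5% of all genes), 28 with EXT1-/- below WT and 45 with EXT1-/- above it (17.2% and 16.3% of all genes). These shares are descriptions, since genes of a family share sequence and are not replicates.

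**Figure D1:**
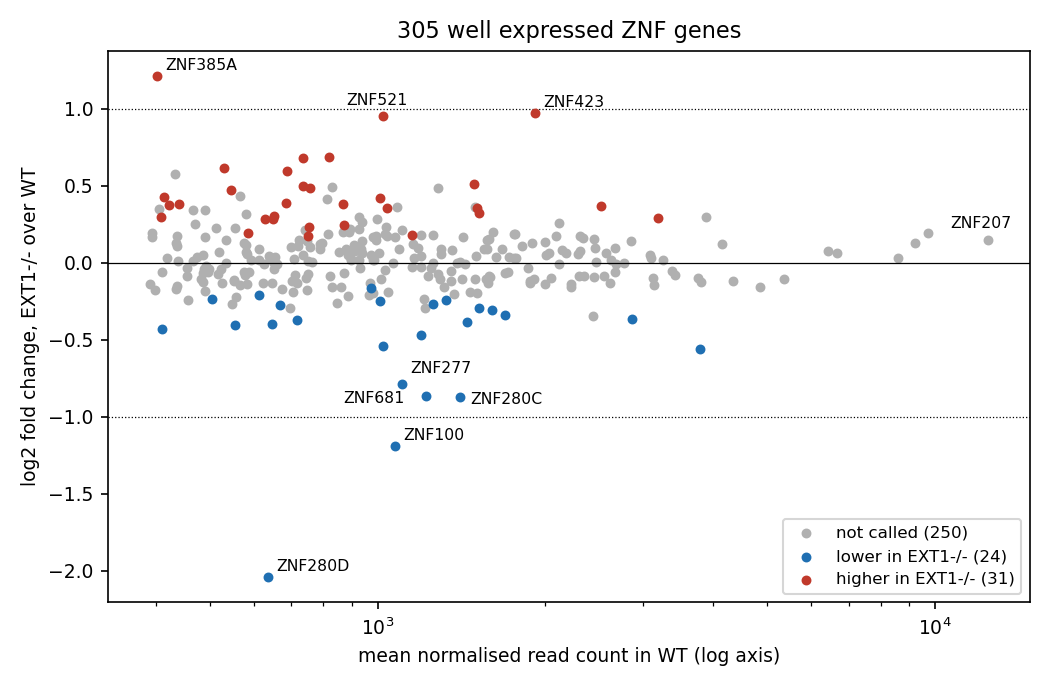
Each point is one of the 305 ZNF genes, with its mean normalised read count in WT libraries (n = 4, log axis) against its log2 fold change, EXT1-/- over WT; blue and red points passed an adjusted p of 0.05 in limma and dotted lines mark 2-fold. Only ZNF280D, ZNF100 and ZNF385A lie beyond a dotted line, and 258 genes differ by less than 1.25-fold.

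The counts moved with the library set. With the set as a term in the model, 146 ZNF genes were called (47.9%, beside 51.8% of all genes). Of these 48 were lower in EXT1-/- (15.7% of the ZNF genes, beside 25.6% of all genes). The other 98 were higher (32.1%, beside 26.2% of all genes). Within the low set alone, 2 EXT1-/- against 3 WT libraries, 113 were called (37.0%, beside 45.0% of all genes). Lower were 31 (10.2%, beside 24.1% of all genes), and higher were 82 (26.9%, beside 20.9% of all genes). In both fits the share called higher lay above that of all genes, while without the term it lay below (10.2%, beside 15.2%). The 55 genes called without the term were also called with it, in the same direction. In the high set each had a difference of that sign too. These comparisons reuse the libraries that chose the 55 genes, so such agreement was favoured in advance and is a description only. In the authors' deposited table, of the ZNF genes, 44 passed an FDR of 0.05 (14.4%, beside 26.2% of all genes), 17 lower and 27 higher (13.6% and 12.6% of all genes), and 39 of the 44 were among the 55.

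The largest fall was that of ZNF280D, and ZNF280C, a close relative on another chromosome, had the third largest. Both belong to a small family named for its likeness to the Drosophila insulator protein suppressor of Hairy wing. The 250 bases before their start sites, from RefSeq (GRCh38.p14), are shown because they share a stretch of 19 bases, in capitals, that only these 2 of 27305 genes hold in that window. The windows are chr15:56733510-56733759 for ZNF280D and chrX:130268900-130269149 for ZNF280C, both on the minus strand. The stretch starts 127 and 54 bases before the RefSeq start site. By the GENCODE coordinates given below, the ZNF280D window lies inside the annotated gene, while the ZNF280C window lies directly before its gene. The windows are therefore not shown to be equivalent upstream sequence, and whether either stretch is transcribed was not tested.
ZNF280D: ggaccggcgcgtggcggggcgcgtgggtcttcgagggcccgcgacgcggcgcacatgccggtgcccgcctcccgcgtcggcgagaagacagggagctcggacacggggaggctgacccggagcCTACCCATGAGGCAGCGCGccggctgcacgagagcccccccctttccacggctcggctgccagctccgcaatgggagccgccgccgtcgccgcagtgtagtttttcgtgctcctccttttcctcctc
ZNF280C: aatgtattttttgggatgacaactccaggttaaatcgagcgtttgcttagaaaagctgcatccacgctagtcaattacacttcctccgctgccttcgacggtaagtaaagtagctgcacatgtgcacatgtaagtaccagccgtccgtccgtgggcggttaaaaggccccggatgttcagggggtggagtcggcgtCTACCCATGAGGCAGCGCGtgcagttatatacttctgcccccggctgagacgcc
A shared stretch is a description and does not show that it is bound or active in these cells.

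ZNF280D (ENSG00000137871, chromosome 15, 56630181 to 56734086, minus strand, GRCh38 coordinates from GENCODE 29) had 191, 143, 136 and 150 normalised read counts in EXT1-/- replicates 1 to 4, against 662, 612, 632 and 638 in WT replicates 1 to 4. Every EXT1-/- library lay far below every WT library, in both mitochondrial sets. The means were 155 ± 24.7 in EXT1-/- and 636 ± 20.6 in WT libraries (SD, n = 4 each), a log2 fold change of -2.04 ± 0.11 (SE) with a limma adjusted p of 3.22e-06. Its exons share 3302 bases with AC090517.4 on the same strand, so reads could be split between the pair. ZNF280C (ENSG00000056277, chromosome X, 130202711 to 130268899, minus strand) had 810, 768, 750 and 733 in EXT1-/- replicates, against 1539, 1371, 1318 and 1385 in WT replicates. These groups did not overlap either, and the log2 fold change was -0.87 ± 0.07 (SE; limma adjusted p = 2.02e-05). ZNF280B, on chromosome 22, had 875, 870, 810 and 833 in EXT1-/- replicates and 751, 740, 728 and 779 in WT replicates. It was called higher, by 0.18 on the log2 scale (limma adjusted p = 0.0378), but not in the low set alone, where the log2 fold change was 0.16. ZNF280B lies outside the naming rule and was added after its values were seen.

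ZNF100 and ZNF681, both KRAB genes of the cluster at 19p12, were also among the 4 largest falls. ZNF100 (ENSG00000197020, chromosome 19, 21722766 to 21767628, minus strand) had 435, 503, 507 and 440 in EXT1-/- replicates, against 991, 1086, 1070 and 1153 in WT replicates. All 4 EXT1-/- values were under the lowest WT value, and the log2 fold change was -1.19 ± 0.08 (SE; limma adjusted p = 9.84e-06). ZNF681 (ENSG00000196172, chromosome 19, 23739195 to 23758891, minus strand) had 630, 760, 749 and 556 in EXT1-/- replicates, against 1086, 1325, 1258 and 1221 in WT replicates. Again no value crossed between groups, and the log2 fold change was -0.87 ± 0.11 (SE; limma adjusted p = 4.83e-04). KRAB genes of this cluster are close copies of one another, so reads can be assigned to the wrong copy. The submitters' processing notes name RSEM, and how reads common to several copies were divided was not examined here.

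The next 4 falls were smaller. ZNF277, a protein with C2H2 fingers that binds the Polycomb protein BMI1 in mouse cells, had 587, 709, 701 and 556 in EXT1-/- replicates, against 854, 1181, 1215 and 1170 in WT replicates. WT replicate 1 stood below the other WT libraries but above all EXT1-/- libraries, and the log2 fold change was -0.79 ± 0.13 (SE; limma adjusted p = 0.00209). ZNF121 had 2338, 2897, 2960 and 2149 in EXT1-/- replicates, against 3191, 4015, 3981 and 3995 in WT replicates, so that WT replicate 1 again came closest to the EXT1-/- values; the log2 fold change was -0.56 ± 0.12 (SE; limma adjusted p = 0.00826). ZNF391 had 738, 697, 677 and 699 in EXT1-/- replicates, against 1013, 1012, 1005 and 1064 in WT replicates. These were among the tightest groups, and the log2 fold change was -0.54 ± 0.05 (SE; limma adjusted p = 1.02e-04). ZNF251, a KRAB gene, had 915, 868, 841 and 826 in EXT1-/- replicates, against 1285, 1185, 1165 and 1145 in WT replicates. Its groups did not overlap, with a log2 fold change of -0.47 ± 0.06 (SE; limma adjusted p = 4.98e-04).

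**Figure D2:**
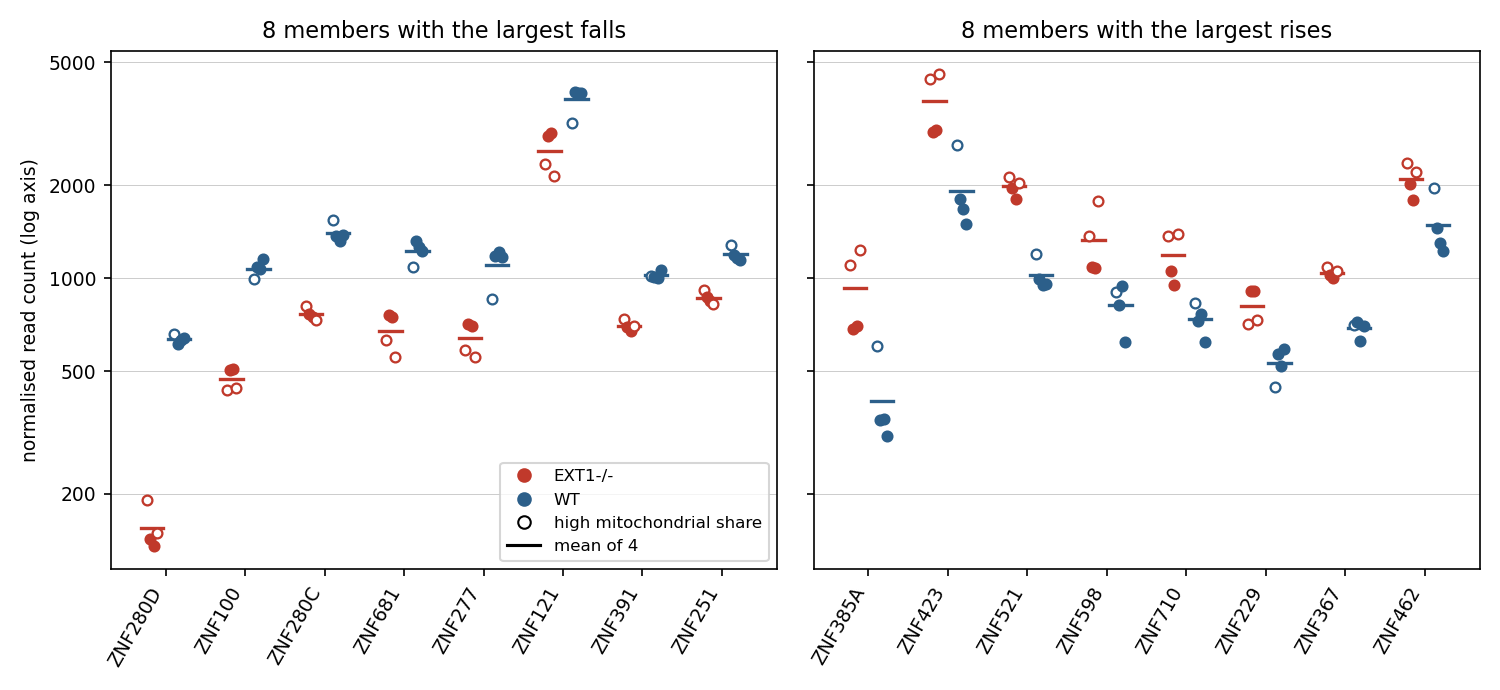
Normalised read counts (log axis) of the 8 called ZNF genes with the largest falls and the 8 with the largest rises in EXT1-/-, one point per library (4 EXT1-/- in red, 4 WT in blue), with the mean of 4 as a bar and libraries of high mitochondrial share as open circles. The groups stand apart in every gene plotted except ZNF462, where WT replicate 1 lies within the EXT1-/- range.

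The 3 largest rises were those of genes without a KRAB box. ZNF385A, a zinc finger protein that binds RNA and p53, had 1107, 683, 701 and 1237 in EXT1-/- replicates, against 602, 347, 349 and 308 in WT replicates. Within each group the high mitochondrial libraries were the highest, and still the lowest EXT1-/- value exceeded the highest WT value. The log2 fold change was 1.21 ± 0.26 (SE; limma adjusted p = 0.0073), and within the low and the high set it was 1.05 and 0.96. ZNF423, a partner of SMAD proteins in the response to bone morphogenetic proteins, had 4420, 2985, 3011 and 4577 in EXT1-/- replicates, against 2694, 1808, 1678 and 1497 in WT replicates. It had the same dependence on the library set, and its log2 fold change was 0.97 ± 0.21 (SE; limma adjusted p = 0.00776). ZNF521, its closest relative, which drives mouse embryonic stem cells towards neural fates, had 2131, 1955, 1809 and 2035 in EXT1-/- replicates, against 1195, 997, 950 and 957 in WT replicates. The groups of ZNF521 were well apart in both sets, with a log2 fold change of 0.96 ± 0.09 (SE; limma adjusted p = 6.53e-05).

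ZNF598, a ubiquitin ligase that marks collided ribosomes, had 1375, 1089, 1081 and 1783 in EXT1-/- replicates, against 901, 817, 942 and 620 in WT replicates. The log2 fold change was 0.69 ± 0.19 (SE; limma adjusted p = 0.0215), and the call was lost without EXT1-/- replicate 1, WT replicate 2 or WT replicate 4, with an adjusted p of up to 0.0559. ZNF710 had 1367, 1057, 950 and 1389 in EXT1-/- replicates, against 831, 726, 765 and 620 in WT replicates. No value crossed between its groups (log2 fold change 0.68 ± 0.14, SE; limma adjusted p = 0.00635), although its exons share 793 bases with ZNF710-AS1 on the other strand and the counting setting for strand is not given in the sources used here. ZNF229, a KRAB gene, had 711, 910, 909 and 731 in EXT1-/- replicates, against 444, 570, 521 and 588 in WT replicates. Here the high mitochondrial libraries were the lowest of each group, and the log2 fold change was 0.62 ± 0.12 (SE; limma adjusted p = 0.00458). ZNF367 had 1088, 1024, 1005 and 1056 in EXT1-/- replicates, against 707, 722, 624 and 702 in WT replicates. Both groups were tight, and the log2 fold change was 0.60 ± 0.06 (SE; limma adjusted p = 1.65e-04). ZNF462, a large protein with 33 finger matches whose loss of a copy causes a human developmental syndrome, had 2368, 2025, 1798 and 2202 in EXT1-/- replicates, against 1967, 1453, 1300 and 1229 in WT replicates. Its groups overlapped at WT replicate 1, and the log2 fold change of 0.51 ± 0.15 (SE; limma adjusted p = 0.0292) was still called in only 2 of the 8 fits that left out a library, with an adjusted p of up to 0.0818.

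The remaining 16 lower genes had log2 fold changes of -0.43 (ZNF800) to -0.16 (ZNF791), and the remaining 23 higher genes of 0.18 (ZNF280B) to 0.50 (ZNF300). In all, 14 of the 24 lower and 15 of the 31 higher genes had a KRAB box. ZNF300 had 970, 1166, 1149 and 890 in EXT1-/- replicates, against 701, 727, 757 and 756 in WT replicates. ZNF274, which brings SETDB1 to the ends of other ZNF genes on chromosome 19, had 1246, 1391, 1334 and 1261 in EXT1-/- replicates, against 1137, 1152, 1132 and 1187 in WT replicates. Neither gene's groups overlapped. The log2 fold change of ZNF274 was 0.18 ± 0.06 (SE; limma adjusted p = 0.035), and the call was kept in 3 of the 8 fits that left out a library. Of the 55 called genes, 35 kept their call in every such fit, 14 lower and 21 higher. The genes added here were chosen after their values were seen.

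Groups of known function were then read one by one. The 11 regulators of pluripotency and development included 9 of the well expressed genes, of which 4 rose (ZNF423, ZNF521, ZNF462 and ZNF217) and 1 fell (ZNF398), with a median log2 fold change of 0.29. Of all genes 15.2% were higher and 16.8% lower, and the list was chosen with earlier results of these data known. The 3 largest of these rises are also among those named for their size above. ZNF217, which works with the LSD1 and CoREST repressor complex, had 4109, 3837, 3651 and 3937 in EXT1-/- replicates, against 3482, 3063, 3015 and 3166 in WT replicates. Its groups were separate, with a log2 fold change of 0.29 ± 0.06 (SE; limma adjusted p = 0.00834). ZNF398, which sustains pluripotency with SMAD3 in human stem cells, had 1166, 1174, 1091 and 1053 in EXT1-/- replicates, against 1489, 1290, 1281 and 1244 in WT replicates. The values did not overlap, but the log2 fold change of -0.24 ± 0.07 (SE; limma adjusted p = 0.0338) lost its call in 5 of the 8 fits without a library, with an adjusted p of up to 0.0816. ZNF281, a repressor found with NANOG, had a log2 fold change of -0.05 and ZNF148, its relative, of -0.10, both short of the threshold. ZNF219, a partner of SOX9 in mouse cartilage, had 1725, 1455, 1283 and 3086 in EXT1-/- replicates, against 1400, 1242, 1557 and 946 in WT replicates. EXT1-/- replicate 4 stood well above the rest, the groups overlapped, and the log2 fold change of 0.49 ± 0.27 (SE) was not called. The pair of listed genes below the WT mean, ZNF703 and ZNF503, are relatives of each other that repress transcription in development. ZNF703 had 506, 530, 584 and 1251 in EXT1-/- replicates, against 136, 168, 196 and 175 in WT replicates, and ZNF503 had 37, 38, 43 and 133 in EXT1-/- replicates, against 6, 15, 13 and 12 in WT replicates. Both rose, with no overlap between groups and log2 fold changes of 1.99 and 2.19 (limma adjusted p = 7.20e-04 and 0.00645), and in both EXT1-/- replicate 4 was the highest. ZNF503, whose WT mean was 11.5, is not tested where a gene must reach 1 CPM, or 5 CPM, in 4 libraries.

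Among the 13 partners of general transcription and chromatin, 0 passed the threshold in limma, beside 32.0% of all genes, and 0 in limma-voom. An unadjusted p below 0.05 was found for 3 of the 13. Their log2 fold changes ran from -0.13 to 0.26 with a median of 0.06. They include ZNF143, which binds promoters and loop anchors, and ZNF532, ZNF592 and ZNF687, which form a complex with ZMYND8. ZNF687 had 2791, 2323, 2312 and 2688 in EXT1-/- replicates, against 2507, 2109, 2027 and 1825 in WT replicates, and ZNF592 had 2461, 2252, 2153 and 2561 in EXT1-/- replicates, against 2348, 1989, 1995 and 2028 in WT replicates. In both genes the WT library of the high set lay among the EXT1-/- values. ZNF644, a partner of the histone methyltransferase G9a, had 3563, 3545, 3504 and 3368 in EXT1-/- replicates, against 3826, 3822, 3665 and 3892 in WT replicates. These values did not overlap, and the log2 fold change of -0.12 ± 0.05 (SE) missed the threshold (limma adjusted p = 0.0762). With the library set as a term, 5 of the 13 were called (38.5%, beside 51.8% of all genes), 1 lower and 4 higher.

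Proteins that bind RNA or act on ribosomes and in splicing gave 1 called gene of the 10 measured at this level, ZNF598. It was higher, where 32.0% of all genes were called and 15.2% were higher. An unadjusted limma p below 0.05 was found for 4 of the 10, 1 lower and 3 higher. The median log2 fold change was 0.11. ZNF622, a factor of large ribosomal subunit maturation, had 890, 966, 926 and 915 in EXT1-/- replicates, against 732, 869, 873 and 782 in WT replicates, with no overlap and an adjusted p of 0.0798 in limma. ZNF326, a subunit of a complex that couples splicing to elongation, had 2461, 2819, 2686 and 2462 in EXT1-/- replicates, against 2045, 2407, 2254 and 2530 in WT replicates, with overlapping groups. With the library set as a term 7 of the 10 were called, 6 of them higher, ZNF207, ZNF622 and ZNF326 included, where 51.8% of all genes were called and 26.2% were higher.

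Among the 9 KRAB repressors of transposons, 0 were called in limma, beside 32.0% of all genes, and 0 in limma-voom. An unadjusted p below 0.05 was found for 1 of the 9. Their log2 fold changes ran from -0.19 to 0.14 around a median of 0.00. With the library set as a term 3 of the 9 were called (33.3%, beside 51.8% of all genes), ZNF33A and ZNF37A lower and ZNF765 higher. ZNF91, which silences SVA elements, had 1669, 1582, 1648 and 1581 in EXT1-/- replicates, against 1804, 1636, 1590 and 1748 in WT replicates. ZNF93, which silences LINE-1 elements, had 2668, 2344, 2333 and 2518 in EXT1-/- replicates, against 2735, 2339, 2322 and 2453 in WT replicates. The groups of both genes overlapped, and their log2 fold changes were -0.06 ± 0.06 and 0.00 ± 0.07 (SE).

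The machinery that KRAB proteins act through was measured for 12 of 13 listed genes, of which 2 fell and 1 rose, where 32.0% of all genes were called. CBX5, which encodes HP1 alpha, had 13126, 14567, 13747 and 12617 in EXT1-/- replicates, against 17466, 17973, 17140 and 17944 in WT replicates. The groups were far apart, with a log2 fold change of -0.39 ± 0.06 (SE; limma adjusted p = 9.31e-04). ATF7IP2, a relative of the SETDB1 partner ATF7IP, had 477, 558, 527 and 466 in EXT1-/- replicates, against 598, 707, 753 and 820 in WT replicates, again without overlap, and a log2 fold change of -0.50 ± 0.11 (SE; limma adjusted p = 0.00716). PPHLN1, a HUSH complex subunit, was higher by 0.14 on the log2 scale at an adjusted p of 0.0466 in limma, and its call was kept in 1 of the 8 fits that left out a library. TRIM28 itself had 17705, 17500, 17013 and 18090 in EXT1-/- replicates, against 15691, 16332, 16536 and 14787 in WT replicates. Those values did not overlap, and the log2 fold change of 0.15 ± 0.05 (SE) missed the threshold (limma adjusted p = 0.0543). SETDB1, the methyltransferase of the complex, had a log2 fold change of -0.04, with overlapping groups. With the library set as a term, 7 of the 12 were called (58.3%, beside 51.8% of all genes). They were 4 lower and 3 higher (25.6% and 26.2% of all genes), with TRIM28 among the higher (limma adjusted p = 0.0143).

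Genes with and without a KRAB box were then set side by side. Of 197 genes with a KRAB box, 14 were lower and 15 higher (14.7% called, median log2 fold change 0.00), and of 106 without one, 10 were lower and 16 higher (24.5%, median 0.09), and no test of this difference was run. Both shares lie below the 32.0% of all genes. The classes also differed in level, with a median WT mean of 887 in KRAB genes and 1253 in the others, and in finger matches, with medians of 12 and 7. Of the 14 genes with a SCAN box, ZNF202 and ZNF197 were lower and ZNF274 and ZNF75A higher. The share called was 18.1% in genes with 10 or more finger matches and 17.9% in those with 1 to 9.

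The library set divided these genes in another way. Taking the set as a term, 126 ZNF genes were lower and 55 higher in the high mitochondrial libraries (24.4% and 24.1% of all genes). Together they were 59.3% of the ZNF genes, beside 48.5% of all genes and 59.6% of the other well expressed genes. Genes with a KRAB box made up 96 of the lower and 17 of the higher ones, with a median difference of -0.12 on the log2 scale, against 29 lower and 37 higher without the box, with a median of 0.06. The largest of these differences are given here as examples chosen after their values were seen. ZNF780A, a KRAB gene, had 614, 1206, 1134 and 682 in EXT1-/- replicates and 675, 1066, 1022 and 1121 in WT replicates. Its 3 high mitochondrial libraries were the lowest of the 8, while its log2 fold change between genotypes was -0.13 and not called. ZNF358, without a KRAB box, had 1706, 927, 892 and 2217 in EXT1-/- replicates and 1671, 888, 1020 and 751 in WT replicates. For this gene the same 3 libraries were the highest, and the log2 fold change between genotypes of 0.36 was not called. Of the 3 high libraries 2 are EXT1-/-, so set and genotype overlap in part. What the set stands for was not tested.

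**Figure D3:**
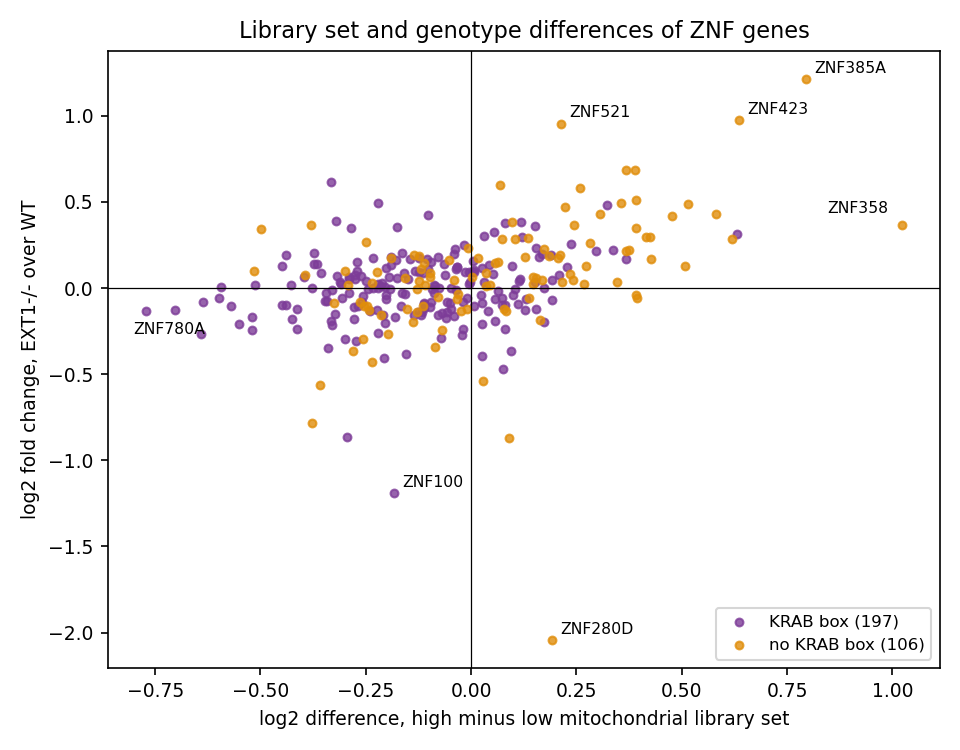
Log2 difference between the high and the low mitochondrial libraries (3 against 5, from the model with both terms) against the log2 fold change, EXT1-/- over WT, for ZNF genes with (purple, 197) and without (orange, 106) a KRAB box. Of the genes with a KRAB box, 96 are called lower in the high set and 17 higher, and ZNF280D, ZNF100 and ZNF521 have genotype differences larger than their set differences.

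By genomic position, chromosome 19 held 8 lower and 8 higher genes among 135 (11.9% called), and the other chromosomes 16 lower and 23 higher among 170 (22.9% called), beside 32.0% of all genes, 16.8% lower and 15.2% higher. Runs of ZNF genes with gaps under 1.5 Mb gave 13 clusters on chromosome 19, some of a single gene. The 19p12 cluster (19668796 to 24129961) held 25 of the genes, of which 4 fell, ZNF100, ZNF681, ZNF43 and ZNF730, and 0 rose, with a median log2 fold change of -0.06. These 4 of 25 are near the 16.8% of all genes called lower, so the count alone does not set the cluster apart. With limma-voom 4 were called, and at an unadjusted p below 0.05 there were 7 lower and 2 higher. ZNF43, which lies next to ZNF100 in the list by position, had 2421, 2241, 2083 and 2150 in EXT1-/- replicates, against 3040, 2796, 2705 and 2904 in WT replicates, with a log2 fold change of -0.36 ± 0.06 (SE; limma adjusted p = 0.00277). ZNF730 had 527, 542, 610 and 536 in EXT1-/- replicates, against 702, 662, 612 and 696 in WT replicates, a narrow separation (log2 fold change -0.27 ± 0.07, SE; limma adjusted p = 0.022) that was not called in the low set alone. Both were named after their values were seen.

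A neighbour too weak in WT cells to be included went further. ZNF726 (ENSG00000213967, chromosome 19, 23914876 to 23945159, plus strand), a KRAB gene that follows ZNF681 in the cluster, had 1, 0, 0 and 1 normalised read counts in EXT1-/- replicates, against 251, 307, 280 and 361 in WT replicates. It was nearly absent from all EXT1-/- libraries and present in all WT libraries (limma adjusted p = 1.08e-06). ZNF254, the next ZNF gene beyond it, averaged 2166.5 in EXT1-/- and 2296 in WT libraries. Its log2 fold change of -0.09 was not called. Both genes lie outside the naming rule, and ZNF726 was added after its values were seen. Genes that did not pass the threshold lay between those that fell. The EXT1-/- group is 1 line, so a difference of that line and an effect of EXT1 loss cannot be told apart.

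The 250 bases before the start sites of 4 genes of this cluster, 3 that fell and ZNF91, which was not called, are shown because they are close copies with unlike results. They come from RefSeq (GRCh38.p14), all on the minus strand: chr19:21767580-21767829 for ZNF100, chr19:23758892-23759141 for ZNF681, chr19:21836183-21836432 for ZNF43 and chr19:23395472-23395721 for ZNF91. By the GENCODE coordinates given above, the ZNF100 window reaches in part into the annotated gene, and the ZNF681 window lies directly before its gene. Capitals mark CCAATC, the letters of a CCAAT box, and CCGGAA, the core of sites for ETS factors, on either strand, so that they also read GATTGG and TTCCGG; in ZNF681 a TTCCGG is followed directly by a GATTGG.
ZNF100: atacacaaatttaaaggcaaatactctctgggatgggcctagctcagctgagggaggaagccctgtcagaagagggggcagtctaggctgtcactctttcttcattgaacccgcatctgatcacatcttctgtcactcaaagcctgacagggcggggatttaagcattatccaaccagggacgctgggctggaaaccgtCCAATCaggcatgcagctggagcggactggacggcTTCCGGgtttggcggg
ZNF681: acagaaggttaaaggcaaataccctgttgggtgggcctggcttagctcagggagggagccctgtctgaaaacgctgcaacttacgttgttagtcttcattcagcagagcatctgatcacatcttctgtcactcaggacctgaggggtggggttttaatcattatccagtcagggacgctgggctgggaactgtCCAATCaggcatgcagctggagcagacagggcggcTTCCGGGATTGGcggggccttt
ZNF43: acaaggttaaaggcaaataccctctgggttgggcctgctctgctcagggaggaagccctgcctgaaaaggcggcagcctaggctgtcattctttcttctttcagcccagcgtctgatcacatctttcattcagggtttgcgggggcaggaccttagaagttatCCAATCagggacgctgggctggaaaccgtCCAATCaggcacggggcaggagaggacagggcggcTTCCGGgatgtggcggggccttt
ZNF91: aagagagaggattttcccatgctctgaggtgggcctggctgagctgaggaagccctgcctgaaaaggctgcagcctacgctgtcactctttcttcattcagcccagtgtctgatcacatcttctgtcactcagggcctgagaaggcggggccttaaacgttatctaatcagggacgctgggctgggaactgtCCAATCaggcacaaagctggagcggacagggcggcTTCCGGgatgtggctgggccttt
Identity was 78.12% between the windows of ZNF100 and ZNF681, which fell most, and 78.76% between those of ZNF681 and ZNF91. Over 210 pairs of such windows, from the 21 cluster genes with a single window, the median identity was 76.01%, with a range of 43.16 to 92.0%.

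CCAATC was common to the matched cluster genes, called or not, and the other searched letters were not split by call within the cluster. CCAATC on either strand was present in 22 of the 22 cluster genes matched, beside 29.4% of 265 matched ZNF genes and 16.8% of 27305 genes in all. CCGGAA was present in 15 of the 22 (68.2%), in 43.0% of the matched ZNF genes and in 17.2% of all genes. GGGCGG, the letters of a GC box, stood in 66.4% of the matched ZNF genes and 46.2% of all genes, and the promoter element TATAAA was found in 6.0% of the matched ZNF genes and 13.0% of all genes, both on either strand. A match is a description of these letters and not a bound site.

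The other chromosome 19 clusters with at least 8 of the genes had 6.25 to 16.1% of them called, beside 32.0% of all genes. Of all genes 16.8% were lower and 15.2% higher. The directions below are descriptions, and no test of a cluster was run. The cluster at 51571298 to 53580269 held 32 of the genes, with 0 lower and 2 higher, ZNF480 and ZNF611, and a median log2 fold change of 0.06. The cluster nearest the end of the long arm, 55476332 to 58481230, held 31, with ZNF667 and ZNF581 lower, ZNF274, ZNF211 and ZNF71 higher and a median of 0.09. The cluster at 34677639 to 37817300 held 15, with ZNF567 and ZNF850 higher and 0 lower, where 1 was lower and 3 were higher at an unadjusted p below 0.05. The one at 42068477 to 45076588 held 9, with ZNF229 as its 1 higher gene and the highest median of the clusters with at least 8 of the genes, 0.20. The cluster at 11483427 to 12640098 held 8, 7 of them lower in the high mitochondrial set, and its 1 called gene, ZNF791, was lower in EXT1-/-. The cluster at 7069444 to 9793180 held 9, of which ZNF121 was called. Apart from ZNF121 and ZNF229, these genes were named after their values were seen.

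**Figure D4:**
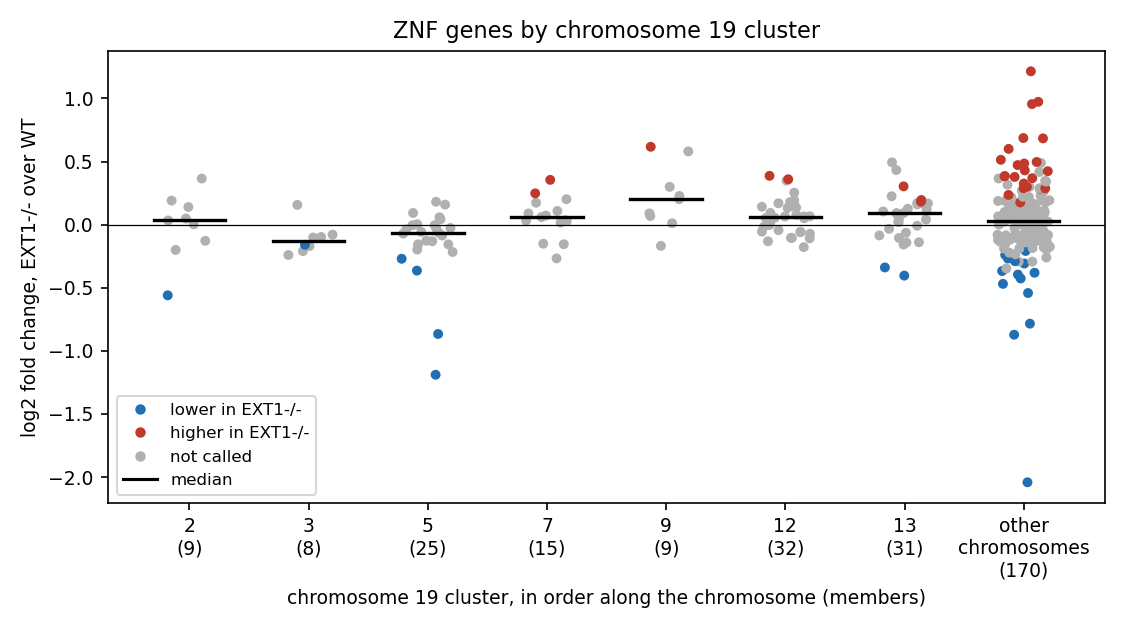
Log2 fold change, EXT1-/- over WT, of ZNF genes in the chromosome 19 clusters with at least 8 genes (numbered along the chromosome, gene counts in brackets) and on all other chromosomes; bars are medians, and blue and red points were called lower and higher. Cluster 5, at 19p12, holds ZNF100 at -1.19 and ZNF681 at -0.87, and its other genes lie between ZNF43 at -0.36 and ZNF708 at 0.18.

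The choice of the WT mean as the threshold bore on the counts. Just inside it were ZNF239 with a WT mean of 391.2 and ZNF610 and ZNF135 with 394.5 each, and just outside ZNF343 with 379.5, ZNF749 with 378.8 and ZNF502 with 378.2. Taking the EXT1-/- mean instead gave 313 genes with 62 called, 22 lower and 40 higher, and the mean over all 8 libraries gave 311 genes with 61 called, 23 lower and 38 higher. The rule on the WT mean had given 24 lower and 31 higher.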

How the data were processed

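Total RNA of 8 libraries was sequenced with a stranded kit, per the labels' protocols. STAR, RSEM, edgeR and GRCh38.p10 are named in the submitters' processing notes, without versions. The deposited values per library are a normalised signal: whole numbers whose TMM effective library sizes, computed here, were 38890479 to 38899246, so 1 CPM is 38.9 of them and they were not treated as counts. The authors' log2 fold change and FDR (an adjusted p-value) were deposited beside them and are named where used; the other deposited columns (log2 CPM, likelihood ratio score and p-value) were not used. Depth before normalisation is unknown, so no counting intervals are given.

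Groups and replicate numbers came from sample titles. All 15811 genes were fitted on log2(value + 1) with limma 3.58.1 in R 4.3.3 (intensity trend, genotype as the only term, two-sided), adjusted by Benjamini-Hochberg with a threshold of 0.05, and the fit was tested on simulated data. Genes needed a mean of 1 or more in one of the groups, which all met. A count model had been written down for the case of raw counts and was not used. Counts at an unadjusted p below 0.05 are given without the share of all genes, and only describe the genes listed. Library sets were split at the largest gap in mitochondrial share. Deviations from the group means correlated at 0.67, 0.35, 0.22 and -0.52 between same-numbered replicates, not all above 0.1, and at up to 0.583 between unlike numbers, so numbers were not taken to pair libraries.

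Named genes were the 8 largest falls and 8 largest rises among called genes, the 4 highest WT means, the 3 genes on each side of the threshold, the genes of the 4 function lists and the 4 cofactor genes with the smallest adjusted p. Genes and lists were chosen with earlier results of these data known. Coordinates and coding sequences came from GENCODE 29. Fingers were counted by pattern, and KRAB and SCAN boxes found with HMMER 3.4 profiles (E-value at most 0.001) built from these translations, in place of the protein table that had been planned. RefSeq promoter windows matched 265 of 305 genes. Reads of close copies, overlapping genes and antisense genes could be misassigned: exons overlapped another gene on the same strand in 85 of the 305 genes and on the other strand in 96. Alternatives were other scalings, filters and pseudocounts, limma-voom, a replicate block, the library set, each library left out and other member rules. Python 3.11.15 with pandas 2.3.3 was used.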

Additional observations from a re-analysis of the deposited data

Results flagged for a closer look

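In 16 of 132 groups of 4 libraries, 1 library stood apart from the other 3 by Dixon's criterion, which sets the gap to the nearest library against the group's whole range. Chance gives this in about 1 in 20 groups, and genes that follow the library set share a library, so these are not independent. In 12 of them the library was WT replicate 1, the 1 WT library of the high mitochondrial set. It was the lowest of the WT libraries for ZNF277 (854 normalised read counts), ZNF121 (3191), ZNF146 (7590), ZNF502 (325), ZNF322 (2238) and ZNF518A (2798). It was the highest for ZNF385A (602), ZNF207 (13342), ZNF135 (513), ZNF592 (2348), ZNF512 (3726) and EXT1 (1776). For ZNF385A the other WT libraries had 308 to 349, and for ZNF121 they had 3981 to 4015. Outside that library, EXT1-/- replicate 1 was the highest of its group for ZNF76, with 1167 against 1079 to 1084. WT replicate 4 was the highest for ZNF391 (1064) and PPHLN1 (2946), and WT replicate 3 the lowest for ZNF141 (1221). ZNF277, ZNF121, ZNF391 and ZNF385A kept their calls in every fit that left out a library. ZNF502, which lies below the WT mean used to choose genes, lost its call in 7 of these 8 fits.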

How the results depend on the processing

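The count of called ZNF genes, 55 (24 lower, 31 higher), was within 1.5 times of that value under 3 other scalings, 2 stricter filters, 2 pseudocounts, limma-voom (53) and a replicate block (61, with 25 lower and 36 higher); the numbers do not pair libraries. It was 146 with the library set as a term (48 lower, 98 higher) and 113 in the low mitochondrial set alone (82 higher). Cofactor calls were 3, and 7 and 5 in these fits. Without 1 library the count was 37 to 77, with 14 to 31 lower and 23 to 46 higher, cofactor calls were 2 to 4 and the median log2 fold change was -0.0016 to 0.0484. Without WT replicate 2 there were 14 lower genes, and without WT replicate 1 there were 46 higher. Calls among genes without a KRAB box were 17 without WT replicate 2, against 26 with all libraries. Of the called genes, 35 kept their call in every fit without a library. No named gene changed direction while called. The medians of all genes moved between -0.007 and 0.0144 across scalings. The cause of these changes was not tested.

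The libraries are 4 per group from a single EXT1-/- line, the library sets are not named in the labels and the high set holds 1 WT library.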
